A study of Mus musculus with 2 samples.

Results

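The AP-1 and immediate early factors described here are 10 genes: Fos, Fosb, Fosl1, Fosl2, Jun, Junb, Jund, Atf3, Egr1 and Ier2. They were taken by symbol from the gene list that the 2 deposited matrices share, and all 10 symbols were found among its 32285 genes. The study set hepatocytes, Sox9-positive LPLCs of injured liver and HCC cells side by side, in mouse liver cells profiled as 2 droplet libraries. The DDC and cMet library pooled Sox9-CreERT2:Rosa26-mTmG mice after 5 months of DDC&cMet treatment, with cMet given by HTVi, and WT mice on normal diet at day 0. The DDC library pooled Sox9-EGFP mice after 2 weeks of DDC diet and WT mice on normal diet at day 0. Each time point had 2 mice, all of the strain C57BL/6J;129S6/SvEvTac, and the cells came from perfused livers. The labels call them hepatocytes, while the protocol names isolated hepatocytes or enriched macrophages as input. DDC feeding injures bile ducts and drives Sox9-positive cells to expand, and cMet is the receptor of hepatocyte growth factor. In the tumour mice the Cre of the lineage label is driven from Sox9, and in the diet mice EGFP reports Sox9. Neither mouse nor time can be read from a barcode, so each library is 1 sample, a mixture of untreated and treated mice, and no test between conditions exists. Library, treatment, duration, genotype and tissue handling cannot be told apart.

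AP-1 is a family of dimers that bind DNA through a basic leucine zipper, built from Fos proteins (Fos, Fosb, Fosl1, Fosl2), Jun proteins (Jun, Junb, Jund) and, in some pairs, ATF proteins such as Atf3. Fos proteins cannot bind DNA as pairs of their own kind and need a Jun partner, whereas Jun proteins also pair with each other. Fos, Fosb, Jun, Junb, Atf3, Egr1 and Ier2 are immediate early genes, transcribed within minutes of a growth factor, an injury or a stress from factors already present in the cell. In liver they are known for their burst after partial hepatectomy and for their induction while tissue is being dissociated. Jund is known as the more constant Jun gene, and Fosl1 as a later target that is transcribed in part through AP-1 itself.

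Promoters are shown for 4 Fos and Jun genes that hold letters of well-known control motifs near the start site. Such motifs are known to pass a signal to these genes at once, but whether these matches do so was not tested. Atf3, which also holds such letters, is not printed. Each is the 250 bases before the RefSeq start site (build GRCm38.p6), 5′ to 3′ in the gene's own direction. Capitals mark the letters TGACG in Fos, Fosb and Junb, and the AP-1-like sites TGACATCA and TTACCTCA in Jun. TGACG is part of the cAMP response element TGACGTCA, but that full element was not in these windows. The windows lie at chr12:85473640-85473889 (plus strand) for Fos, chr7:19310046-19310295 (minus strand) for Fosb, chr8:84978749-84978998 (minus strand) for Junb and chr4:95052223-95052472 (minus strand) for Jun.
Fos: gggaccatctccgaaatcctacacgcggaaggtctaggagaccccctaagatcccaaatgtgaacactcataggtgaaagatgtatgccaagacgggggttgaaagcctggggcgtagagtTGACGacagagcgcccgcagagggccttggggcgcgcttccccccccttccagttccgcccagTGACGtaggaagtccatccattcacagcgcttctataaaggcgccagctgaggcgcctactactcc
Fosb: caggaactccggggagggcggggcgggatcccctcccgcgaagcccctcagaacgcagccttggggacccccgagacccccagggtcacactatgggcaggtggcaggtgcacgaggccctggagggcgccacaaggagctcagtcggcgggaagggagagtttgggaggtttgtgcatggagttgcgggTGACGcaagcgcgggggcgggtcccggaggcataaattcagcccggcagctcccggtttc
Junb: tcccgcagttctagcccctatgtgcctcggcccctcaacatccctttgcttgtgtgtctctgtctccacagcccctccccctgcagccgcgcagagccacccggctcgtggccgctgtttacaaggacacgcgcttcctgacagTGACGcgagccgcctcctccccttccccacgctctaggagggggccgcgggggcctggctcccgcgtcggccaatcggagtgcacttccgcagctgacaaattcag
Jun: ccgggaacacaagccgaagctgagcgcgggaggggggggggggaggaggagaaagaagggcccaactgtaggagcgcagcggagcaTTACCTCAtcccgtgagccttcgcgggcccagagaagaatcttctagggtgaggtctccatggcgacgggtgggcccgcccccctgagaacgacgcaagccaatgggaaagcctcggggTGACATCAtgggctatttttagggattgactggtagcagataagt
The motif TGACG began at positions -129 and -66 before the Fos start site, at -60 before Fosb and at -106 before Junb. In Jun the site TGACATCA began at -45 and TTACCTCA at -164.

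RefSeq promoters were matched for 7 of the 10 genes; Fosl1, Egr1 and Ier2 are named only. Searched on both strands in the same 250 bases, TGACG stood in 4 of these 7 (Atf3, Fosb, Junb and Fos), against 17.8% of 32851 promoters. The full element TGACGTCA, which contains TGACG, was in 0 of the 7 and in 1.55% of all promoters, and the AP-1 site TGACTCA in 0 of the 7 and in 4.46%. TGACATCA was in 2.93% of all promoters and TTACCTCA in 0.728%, in each case Jun alone among the 7. The EGR-family site GCGGGGGCG was in Fosl2 and Fosb and in 2.57% of all promoters, and the TATA box letters TATAAA in Fos and in 12.4%. These matches describe the letters of the windows only. In the mm10 gene annotation, Junb overlaps Prdx2 on the other strand by 351 bases, Fosl1 overlaps Ccdc85b by 2767, Jun overlaps Junos by 689, Jund overlaps Gm11175 by 919 and Atf3 overlaps Gm24748 by 108. No source used here says whether the counting used strand, so reads from these overlaps cannot be assigned with certainty.

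A barcode was used where it held 500 or more genes, 1000 or more UMIs (unique molecular identifiers, counted once per captured RNA molecule) and no more than 30% of mitochondrial UMIs. This left 12593 barcodes in the DDC and cMet library and 3613 in the DDC library, with medians of 3529 and 20397 UMIs. Of these barcodes, 8 sequences were present in both libraries. Cells were sorted by marker gates. Alb-high cells had at least 100 UMIs of the albumin gene Alb per 10,000 and passed no gate of another cell type: 8356 cells (66.4%, interval 65.5 to 67.2) in the DDC and cMet library and 2222 (61.5%, 59.9 to 63.1) in the DDC library, at medians of 3026.5 and 24674 UMIs. Kupffer-marker cells (liver macrophages) numbered 1288 and 334 in these libraries, endothelial-marker cells 305 and 68, and stellate-marker cells (pericytes of the sinusoid) only 28 and 8. A class of biliary-marker cells with Alb below the gate held 89 and 300. Cells that passed several gates, or a non-epithelial gate while Alb was at 100 or more, numbered 2235 and 442 and were left out. Levels are UMIs of a gene per 10,000 UMIs summed over the cells of a class, and intervals are 95% counting intervals that leave out any spread between cells or mice.

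In Alb-high cells all 9 hepatocyte markers in the files had UMIs, and their summed level was 779 per 10,000 in the DDC and cMet library and 595 in the DDC library. Kupffer-marker cells held 10 of 10 Kupffer markers at 250 and 272 per 10,000, endothelial-marker cells 14 of 14 at 185 and 198, and stellate-marker cells 13 of 13 in the DDC library at 181. Markers of biliary and progenitor cells moved with the library: the 10 listed summed to 6.23 per 10,000 in Alb-high cells of the DDC and cMet library and 34.0 in those of the DDC library, to 2.00 and 16.3 in Kupffer-marker, 1.45 and 15.1 in endothelial-marker and 74.3 and 159 in biliary-marker cells. Most of this was Spp1, with 4.601 and 31.2 in Alb-high cells, and its part in the differences between libraries was not tested. In biliary-marker cells Spp1 alone stood at 62.4 and 149.9. These cells also held hepatocyte markers at sums of 177 and 197 per 10,000, above their biliary sums. They are therefore not a clean biliary class, and the part of hepatocyte RNA in their results was not tested. The 8 stellate-marker cells of the DDC library also carried Spp1 at 100.2 per 10,000, against 3.57 in the 28 of the DDC and cMet library, and EGFP at 7.58, so they are not a clean stellate group, and their part in the stellate results was not tested. Alb in Kupffer-marker cells was 6.17% of its Alb-high level in the DDC and cMet library and 5.40% in the DDC library, and that share of the Alb-high level of Fos would be 0.300 and 0.154 UMIs per 10,000, against 10.8 and 6.37 held by the Kupffer-marker cells. These cells also carried the neutrophil gene S100a8 at 2.87 and 1.61 UMIs per 10,000, and its part in their levels was not tested. In endothelial-marker cells of the DDC library Alb was 7.81% of its Alb-high level. That share would be 0.0384 UMIs per 10,000 for Atf3, against 0.136 held, and 0.321 for Egr1, against 1.86 held. The part of hepatocyte RNA in the levels of the other classes was not tested.

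Fos, the founding member of its family, had 4.85 UMIs per 10,000 in Alb-high cells of the DDC and cMet library, against 2.86 in those of the DDC library. Its level was 11.9 and 6.03 in biliary-marker cells, 10.8 and 6.37 in Kupffer-marker cells, 12.03 and 4.80 in endothelial-marker cells and 24.5 and 3.46 in stellate-marker cells of the DDC and cMet and of the DDC library. The DDC and cMet library was thus the higher one in all 5 classes. On the log2 scale the difference was 0.76 (interval 0.74 to 0.79) in Alb-high, 0.98 (0.92 to 1.04) in biliary-marker and 0.76 (0.71 to 0.81) in Kupffer-marker cells. It was 1.33 (1.13 to 1.53) in endothelial-marker and 2.82 (2.40 to 3.27) in stellate-marker cells.

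Fosb, whose protein resembles Fos and whose short form lacks a transactivation domain, followed the same order between libraries. Alb-high cells held 1.07 UMIs per 10,000 in the DDC and cMet library and 0.603 in the DDC library. In Kupffer-marker cells the levels were 4.32 and 1.86, in endothelial-marker cells 3.78 and 1.48, in biliary-marker cells 2.81 and 1.02, and in stellate-marker cells 6.92 and 0.938. The log2 differences ran from 0.82 (0.77 to 0.87) in Alb-high to 2.88 (2.08 to 3.81) in stellate-marker cells and passed 1 in 4 of the 5 classes.

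Fosl2 (Fra-2), a Fos protein without the strong activation domain of Fos, set the non-epithelial classes apart from the epithelial ones in both libraries. Endothelial-marker cells had 0.980 UMIs per 10,000 in the DDC and cMet library and 0.886 in the DDC library, and Kupffer-marker cells 0.629 and 0.368. Alb-high cells had 0.0793 and 0.108, and biliary-marker cells 0.160 and 0.135. Over Alb-high cells of the same library the log2 difference was 3.63 (3.43 to 3.82) and 3.04 (2.53 to 3.50) in endothelial-marker cells, and 2.99 (2.86 to 3.11) and 1.77 (1.55 to 1.98) in Kupffer-marker cells. Between libraries the log2 difference of Fosl2 was 0.14 (-0.34 to 0.67) in endothelial-marker cells, 0.77 (0.57 to 0.98) in Kupffer-marker cells and -0.45 (-0.59 to -0.30) in Alb-high cells.

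Fosl1 (Fra-1), best known from invasive epithelial tumours, had few UMIs and its highest measured level in biliary-marker cells. Alb-high cells gave 43 UMIs in the DDC and cMet library and 39 in the DDC library, and biliary-marker cells 17 and 37. Kupffer-marker cells gave 1 and 2 UMIs, endothelial-marker cells 1 and 0, and stellate-marker cells 1 and 0. For the counts of 0 in the DDC library, 3 UMIs would be 0.0682 per 10,000 in endothelial-marker and 0.216 in stellate-marker cells, and the exact upper bounds are 0.0838 and 0.266, above the biliary-marker level of that library, so absence from those classes was not detectable at this depth. In Kupffer-marker cells, with 0.000644 (up to 0.00359) and 0.00301 (up to 0.0109) UMIs per 10,000, the upper bound lies below the biliary-marker levels of 0.0662 (0.0385 to 0.106) and 0.0256 (0.0180 to 0.0352). Against Alb-high cells of their library, Kupffer-marker cells differed by -2.37 (-7.71 to 0.18) and -1.08 (-4.17 to 0.87), and the single UMI of endothelial-marker cells in the DDC and cMet library gives 0.00354 per 10,000 beside 0.00334 in Alb-high cells, so Fosl1 was not shown to be confined to epithelial cells. Biliary-marker cells exceeded Alb-high cells by 4.31 on the log2 scale (3.41 to 5.15) in the DDC and cMet library and by 2.01 (1.32 to 2.70) in the DDC library.

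The Fosl1 UMIs came from few cells. In the DDC and cMet library 7 of 89 biliary-marker cells had any (7.87%, 3.22 to 15.5), against 20 of 8356 Alb-high cells (0.239%, 0.146 to 0.369), which were shallower, and 1 of 1288 Kupffer-marker cells. In the DDC library it was 17 of 300 biliary-marker cells (5.67%, 3.34 to 8.92), against 17 of 2222 Alb-high cells (0.765%, 0.446 to 1.22) and 2 of 334 Kupffer-marker cells. Thinned to 2000 UMIs a cell, 1.15% of biliary-marker and 0.0767% of Alb-high cells of the DDC and cMet library still had one, and 0 of 297 biliary-marker and 0.233% of Alb-high cells of the DDC library, so the share shows no order at that depth. A single cell held up to 9 and 10 UMIs among biliary-marker cells, and up to 7 and 15 among Alb-high cells. The counting intervals of Fosl1 sums are therefore too narrow. Between libraries its difference was 1.37 (0.45 to 2.24) in biliary-marker cells and -0.93 (-1.59 to -0.26) in Alb-high cells, and with Alb-high cells taken from clusters instead of gates the Alb-high difference turned, to 1.04.

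**Figure D1:**
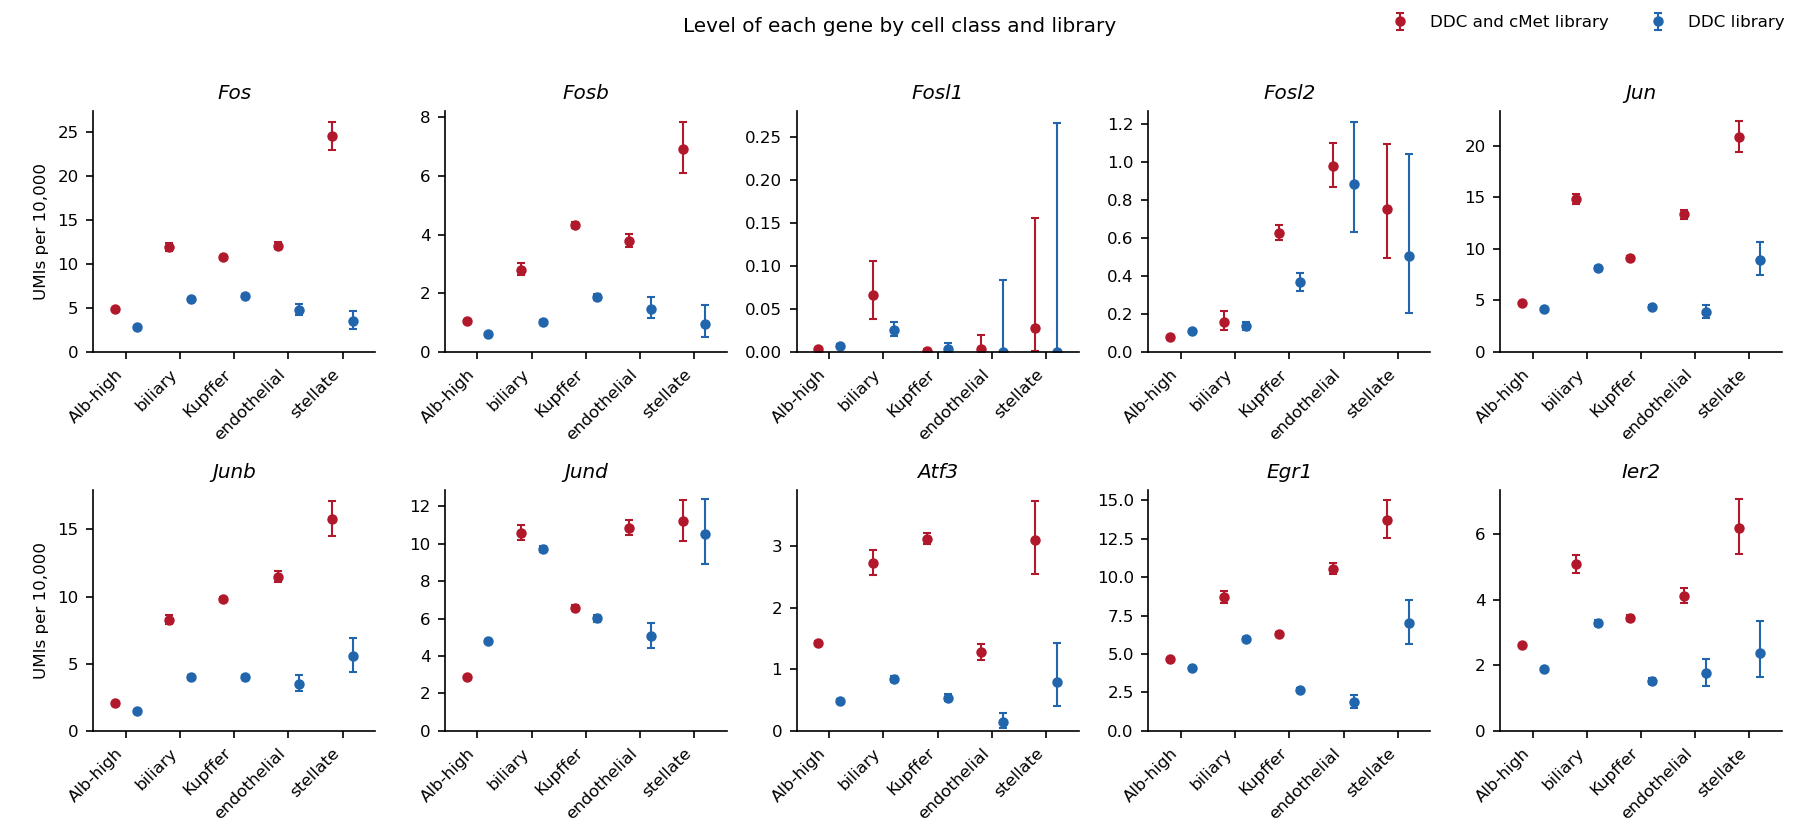
Level of each of the 10 genes, as UMIs per 10,000 summed over a class (vertical axis, starting at 0 and scaled per gene), in 5 cell classes of the DDC and cMet library (red, left) and the DDC library (blue, right). Bars are 95% counting intervals. Fos, Fosb, Jun, Junb, Atf3, Egr1 and Ier2 are higher in the DDC and cMet library in every class. Jund is lower there in Alb-high cells (2.87 against 4.81), and Fosl2 is higher in the non-epithelial classes. Fosl1 has its highest level in biliary-marker cells, on 17 and 37 UMIs from 7 and 17 cells, so its intervals are too narrow.

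Jun, the main partner of Fos, differed little between libraries in Alb-high cells and more elsewhere. Alb-high cells held 4.75 UMIs per 10,000 in the DDC and cMet library and 4.19 in the DDC library, a log2 difference of 0.18 (0.16 to 0.20). Endothelial-marker cells held 13.4 and 3.89 (1.78, 1.56 to 2.01), Kupffer-marker cells 9.12 and 4.36 (1.06, 1.01 to 1.12), and biliary-marker cells 14.8 and 8.16 (0.86, 0.81 to 0.91). Stellate-marker cells held 20.9 and 8.95 (1.22, 0.95 to 1.51), but among the 5 and 4 stellate-marker cells with at least 20000 UMIs the sign turned, to -0.45.

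Junb, a Jun protein that restrains growth in several cell types, had 2.08 UMIs per 10,000 in Alb-high cells of the DDC and cMet library and 1.49 in those of the DDC library (0.48, 0.45 to 0.52). Kupffer-marker cells had 9.82 and 4.02 (1.29, 1.23 to 1.35), endothelial-marker cells 11.5 and 3.52 (1.70, 1.47 to 1.95), stellate-marker cells 15.8 and 5.56 (1.51, 1.16 to 1.87) and biliary-marker cells 8.27 and 4.03 (1.04, 0.96 to 1.11). In both libraries every other class stood above the Alb-high cells for Junb, by 1.99, 2.24, 2.47 and 2.93 on the log2 scale in biliary-, Kupffer-, endothelial- and stellate-marker cells of the DDC and cMet library, and by 1.44, 1.44, 1.24 and 1.90 in the DDC library.

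Jund, the Jun gene least dependent on stimulation, went the other way in Alb-high cells. They had 2.87 UMIs per 10,000 in the DDC and cMet library against 4.81 in the DDC library, a log2 difference of -0.75 (-0.77 to -0.72). It stayed below 0 under all 12 alternatives tried, between -0.83 and -0.48. In biliary-marker cells the levels were 10.6 and 9.74 (0.12, 0.06 to 0.18), in Kupffer-marker cells 6.58 and 6.00 (0.13, 0.08 to 0.19) and in stellate-marker cells 11.2 and 10.5 (0.09, -0.19 to 0.37). Only endothelial-marker cells passed 1, with 10.9 and 5.05 (1.11, 0.91 to 1.31). The median of all genes differed by -0.27 in Alb-high cells; relative to it, the Jund difference was -0.48.

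Atf3, a stress-induced member of the ATF group, was the only one of the 10 whose difference between libraries passed 1 in all 5 classes, although it was 0.89 in stellate-marker cells of at least 20000 UMIs and 0.99 in biliary-marker cells with at most 5% mitochondrial UMIs. Alb-high cells had 1.43 UMIs per 10,000 in the DDC and cMet library and 0.492 in the DDC library (1.54, 1.49 to 1.60). Kupffer-marker cells had 3.13 and 0.532 (2.56, 2.40 to 2.72), biliary-marker cells 2.73 and 0.848 (1.69, 1.55 to 1.82) and stellate-marker cells 3.10 and 0.794 (1.96, 1.07 to 3.01). Endothelial-marker cells had 361 UMIs, or 1.28 per 10,000, in the DDC and cMet library and 6 UMIs, or 0.136, in the DDC library (3.23, 2.09 to 4.68).

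Egr1, a zinc finger factor induced through the same serum response elements as Fos, was almost level between libraries in Alb-high cells, with 4.68 and 4.11 UMIs per 10,000 in the DDC and cMet and the DDC library (0.19, 0.17 to 0.21). Endothelial-marker cells held 10.6 and 1.86 (2.50, 2.19 to 2.84), Kupffer-marker cells 6.32 and 2.66 (1.25, 1.18 to 1.32), stellate-marker cells 13.7 and 6.998 (0.97, 0.66 to 1.30) and biliary-marker cells 8.70 and 6.00 (0.54, 0.47 to 0.60). The ranking of classes differed between the libraries. Endothelial-marker cells exceeded Alb-high cells by 1.17 (1.12 to 1.23) in the DDC and cMet library and stood below them, at -1.14 (-1.47 to -0.83), in the DDC library, and for Kupffer-marker cells the values were 0.43 (0.40 to 0.46) and -0.63 (-0.70 to -0.56).

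Ier2, a short-lived nuclear protein of the immediate early set, had 2.63 UMIs per 10,000 in Alb-high cells of the DDC and cMet library and 1.90 in those of the DDC library (0.47, 0.44 to 0.50). Kupffer-marker cells had 3.44 and 1.51 (1.19, 1.09 to 1.29), endothelial-marker cells 4.13 and 1.75 (1.24, 0.90 to 1.59), stellate-marker cells 6.19 and 2.38 (1.38, 0.85 to 1.95) and biliary-marker cells 5.08 and 3.28 (0.63, 0.54 to 0.72).

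**Figure D2:**
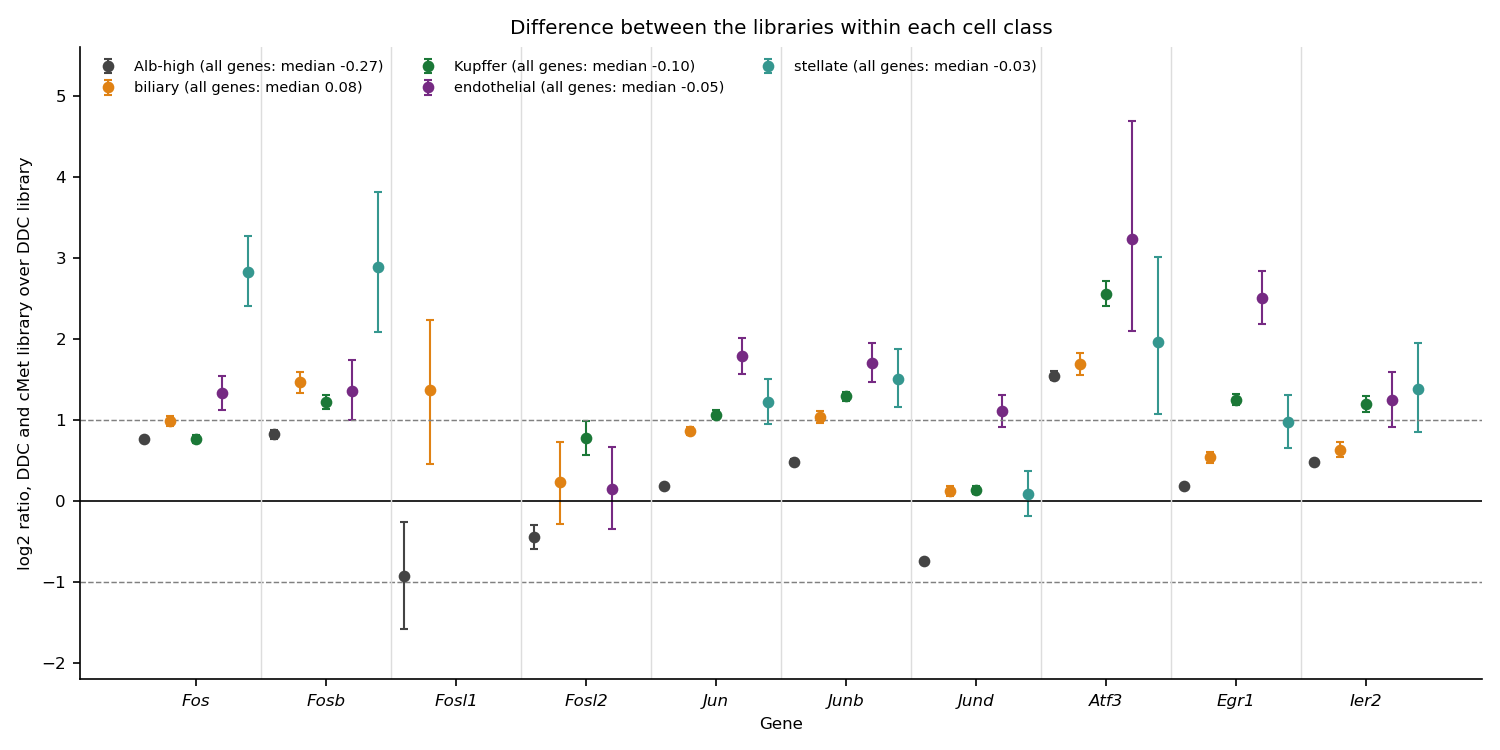
Log2 ratio of summed levels, DDC and cMet library over DDC library, for each gene with at least 50 UMIs over the libraries (horizontal axis) in 5 cell classes (colours). Bars are 95% counting intervals, dashed lines mark -1 and 1, and the legend gives the median of all genes. Atf3 lies above 1 in every class, and the Alb-high points of Fosl1 (-0.93), Fosl2 (-0.45) and Jund (-0.75) lie below 0.

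Counted over the 10 genes, a difference of 1 or more on the log2 scale toward the DDC and cMet library was reached by 1 of 10 in Alb-high cells, where 5.74% of the 13389 genes with at least 50 UMIs reached it. In biliary-marker cells it was 4 of 10 against 4.76% of all genes, in Kupffer-marker cells 6 of 9 against 3.79%, in endothelial-marker cells 8 of 9 against 5.65% and in stellate-marker cells 6 of 8 against 14.5%. Of the genes counted, none reached -1, against 11.4% of all genes in Alb-high, 3.89% in biliary-marker, 5.31% in Kupffer-marker, 2.68% in endothelial-marker and 7.15% in stellate-marker cells. The median difference of the genes counted was 0.33 in Alb-high, 0.92 in biliary-marker, 1.19 in Kupffer-marker, 1.36 in endothelial-marker and 1.44 in stellate-marker cells, and that of all genes -0.27, 0.08, -0.10, -0.05 and -0.03. Centring on the median of all genes takes the count in Alb-high cells to 3, with Fos at 1.03, Fosb at 1.09 and Atf3 at 1.81. This centred count has no centred share of all genes beside it. The 10 genes therefore fall into those higher in the DDC and cMet library in all 5 classes with intervals above 0 (Fos, Fosb, Jun, Junb, Atf3, Egr1 and Ier2), those whose sign differs between classes (Fosl2 and Jund) and Fosl1, which had 50 UMIs or more over the libraries in the epithelial classes alone. No gene was thus shown to be raised in epithelial cells alone. How many of all genes are higher in all 5 classes was not counted, and the biliary-marker and stellate-marker classes were not clean. In Alb-high cells Jun and Egr1 were nearly level, at 0.18 and 0.19. Under 12 alternatives they ran from 0.031 to 0.45 and from 0.015 to 0.45. The Egr1 medians over single Alb-high cells with at least 10000 UMIs, given below, had the opposite order. The part of tissue handling in the differences that all classes share was not tested.

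Endothelial-marker and stellate-marker values rest on few cells of the DDC library. With at least 20000 UMIs per cell only 16 and 1 endothelial-marker cells remained, and 4 of the 9 genes passed 1. For stellate-marker cells, 5 and 4 remained, and 2 passed 1 while 1 passed -1. With so few cells, and no share of all genes at this limit beside them, these counts cannot be read as a result about the genes. The share of mitochondrial UMIs is a sign of stressed cells. Its median was 7.38% in Alb-high cells of the DDC and cMet library and 6.12% in those of the DDC library. In Kupffer-marker cells it was 5.41% and 5.06%. Its upper tail was larger in the DDC and cMet library: 2644 of 8356 Alb-high cells lay above 10%, against 393 of 2222. Among Alb-high cells with at least 10000 UMIs it was 1659 of 3014 against 297 of 1373. The part of this in the differences was not tested.

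Within each library, a class was also set against its Alb-high cells. In the DDC and cMet library, 7 of 10 genes were higher by 1 or more in biliary-marker cells (34.8% of all genes), 6 of 9 in Kupffer-marker cells (33.0%), 7 of 9 in endothelial-marker cells (43.2%) and 9 of 9 in stellate-marker cells (42.8%). In the DDC library the counts were 4 of 10 (12.5%), 4 of 9 (24.5%), 3 of 9 (36.0%) and 4 of 9 (36.9%). None of those counted was lower by 1 or more in biliary-marker cells of the DDC and cMet library (8.26% of all genes) or of the DDC library (5.91%), nor in Kupffer-marker cells (22.8% and 20.4%). The endothelial count in the DDC library is close to that of all genes, and there 2 of 9 genes, Egr1 and Atf3, were lower by 1 or more, against 15.9% of all genes. The medians of all genes were themselves above 0, at 0.69, 0.37, 0.76 and 0.76 in biliary-, Kupffer-, endothelial- and stellate-marker cells of the DDC and cMet library. Centred on them, the counts higher there were 3 of 10, 3 of 9, 4 of 9 and 6 of 9, with Junb in each of the 4. In the DDC library the medians were 0.35, 0.16, 0.54 and 0.59 and the centred counts 2 of 10, 3 of 9, 1 of 9 and 2 of 9, and Egr1 and Atf3 remained lower in endothelial-marker cells. The shares of all genes above were not centred, so the centred counts have no background beside them.

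The share of cells with a UMI was compared after thinning each cell to 2000 UMIs, which kept 5213 of 8356 Alb-high cells of the DDC and cMet library and 1714 of 2222 of the DDC library, and 1212 of 1288 and 317 of 334 Kupffer-marker cells. Fos was detected in 50.2% of Alb-high cells of the DDC and cMet library and 35.1% of those of the DDC library, and in 78.1% and 60.6% of Kupffer-marker cells. For Jund the Alb-high shares were 38.9% and 54.5%, the reverse order, and the Kupffer-marker shares 69.6% and 60.3%. For Atf3 they were 20.7% and 7.99% of Alb-high cells and 38.1% and 6.31% of Kupffer-marker cells. Before thinning, when the DDC library was the deeper one, the Alb-high shares were 67.8% and 70.3% for Fos, 60.1% and 83.2% for Jund and 39.7% and 37.5% for Atf3, and the Kupffer-marker shares 94.2% and 88.0%, 93.2% and 94.9%, and 72.6% and 40.1%.

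A cell thinned to 2000 UMIs held on average 4.58 UMIs of the 10 genes together among Alb-high cells of the DDC and cMet library and 3.86 in the DDC library. Kupffer-marker cells held 11.4 and 5.42, endothelial-marker cells 12.2 and 4.12, and biliary-marker cells 12.9 and 7.41. At least 5 of the 10 genes were detected in 62.7% and 21.8% of Kupffer-marker cells and in 20.03% and 12.02% of Alb-high cells of these libraries, and none in 0.908% and 6.31% of Kupffer-marker and 8.90% and 8.34% of Alb-high cells.

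**Figure D3:**
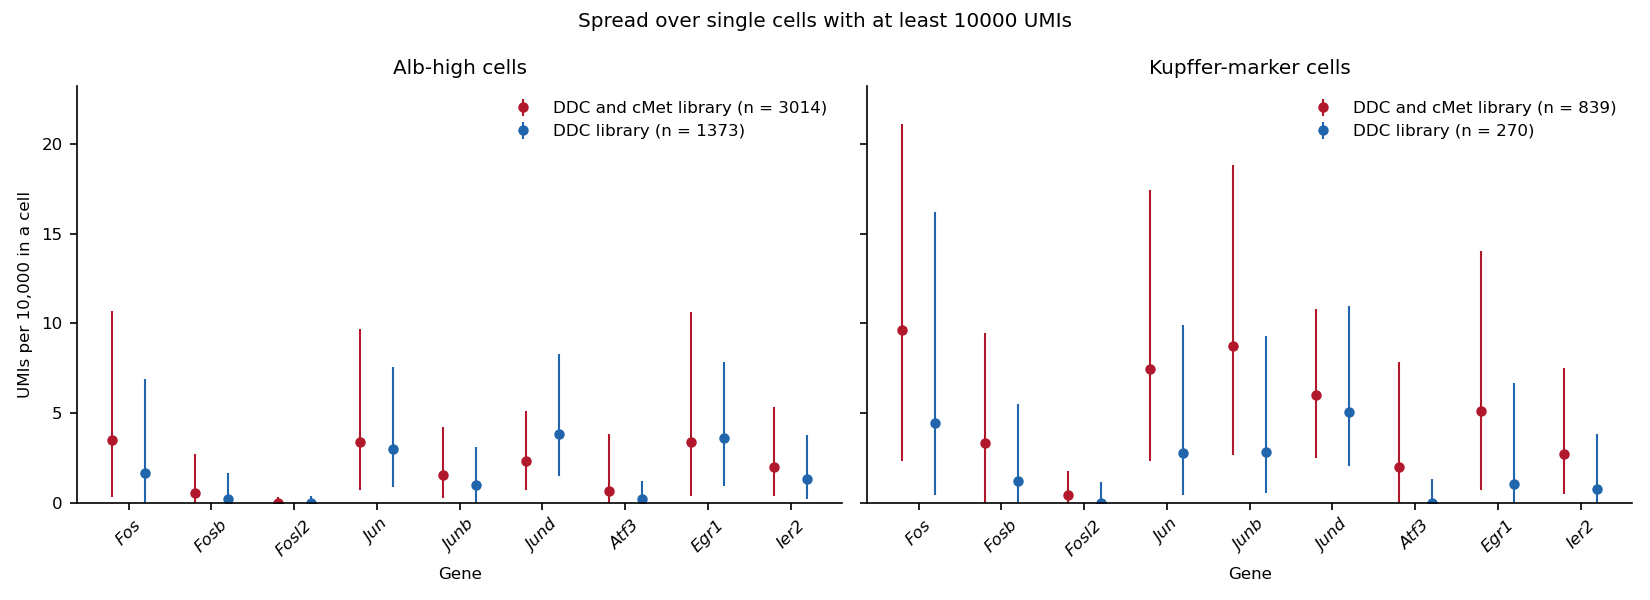
Spread over single cells with at least 10000 UMIs: median (point) and the 10th to 90th percentile (line) of UMIs per 10,000 in a cell, for 9 of the genes, without Fosl1, in Alb-high cells (left) and Kupffer-marker cells (right), for the DDC and cMet library (red, left) and the DDC library (blue, right). The ranges of the libraries overlap for every gene; in Kupffer-marker cells the medians of Fos are 9.62 and 4.41.

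Single cells overlapped widely. Among Alb-high cells with at least 10000 UMIs, Fos had a median of 3.51 UMIs per 10,000 in the DDC and cMet library, with 0.294 and 10.7 at the 10th and 90th percentiles, and a median of 1.65 in the DDC library, with 0 and 6.90. Egr1 medians were 3.37 and 3.59, so that its slightly higher sum in the DDC and cMet library came with a wider upper tail, 10.7 against 7.85 at the 90th percentile. In Kupffer-marker cells the Egr1 medians were 5.11 and 1.01. Jund in Alb-high cells had a median of 2.32 in the DDC and cMet library, with 0.720 and 5.09 at these percentiles, and of 3.80 in the DDC library, with 1.46 and 8.31.

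Across Alb-high cells with at least 20000 UMIs, the genes varied together. Spearman's rho over the 36 pairs without Fosl1 had a median of 0.627 in the DDC and cMet library (2527 cells) and 0.467 in the DDC library (1192 cells), and was highest for Jun with Egr1 in the DDC and cMet library (0.795) and for Fos with Jun in the DDC library (0.647). Fosl2 was the exception, with rho between 0.130 and 0.175 for its 8 pairs in the DDC and cMet library and between 0.0579 and 0.125 in the DDC library; it also had few UMIs per cell, which limits rho. In Kupffer-marker cells the median was 0.289 (120 cells) and 0.456 (145 cells), with Fos and Fosb the highest pair in both, at 0.539 and 0.766. Cells of a library share mice, processing and depth, and each library mixes untreated with treated mice. Spearman's correlation of a gene with the total UMIs of a cell reached at most 0.252 (Jund) in Alb-high cells of the DDC and cMet library and 0.338 (Jund) in the DDC library, and that with the mitochondrial share ran from -0.341 to -0.0298 in the DDC and cMet library and from -0.229 to 0.0819 in the DDC library.

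**Figure D4:**
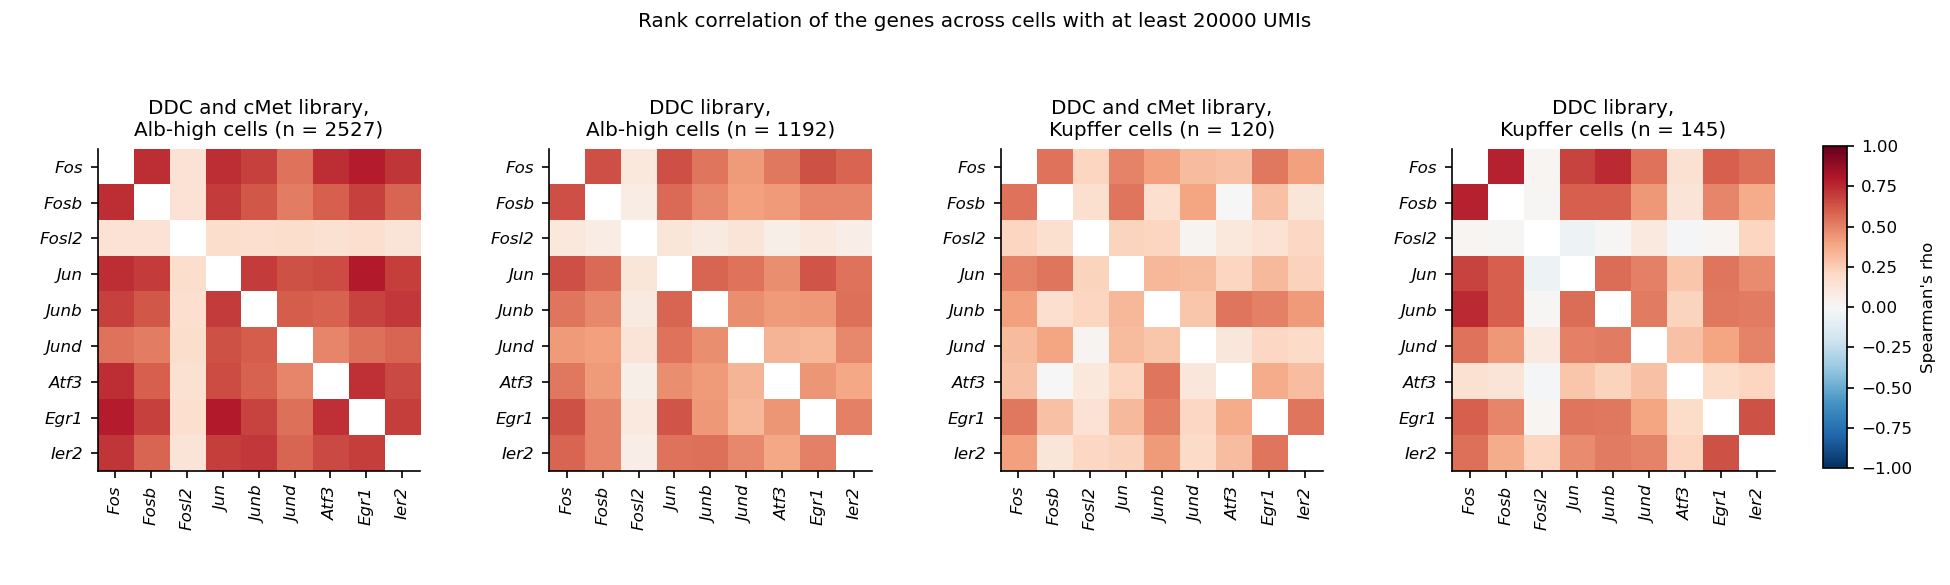
Spearman's rho (colour, from -1 to 1) for pairs of 9 genes across cells with at least 20000 UMIs, in Alb-high cells of the DDC and cMet and of the DDC library (left) and in Kupffer-marker cells of the DDC and cMet and of the DDC library (right). Fosl1 was left out and the diagonal is blank. All genes but Fosl2 vary together in Alb-high cells (medians over all pairs 0.627 and 0.467).

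EGFP, the Sox9 reporter, was read only in the DDC library, where cells passing no non-epithelial gate and with at least 10000 UMIs were binned as EGFP-zero (897 cells), EGFP-low (above 0 and under 2 UMIs per 10,000; 616 cells) and EGFP-high (at least 2; 242 cells). WT mice carry no EGFP by their label, so EGFP-zero cells mix untreated with treated mice, and reporter level and diet cannot be told apart. Median depth was 37286, 48064 and 50436 UMIs in that order, and the biliary and progenitor markers summed to 20.5, 53.8 and 164 per 10,000. In the other library tdTomato had 2 UMIs in all, so no bins were made.

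From EGFP-zero through EGFP-low to EGFP-high, all of the 10 genes but Fosl2 had a higher level at each step, with counting intervals that did not overlap between zero and high. How many of all genes do the same was not counted. The median of all genes was itself higher in EGFP-high than in EGFP-zero cells, by 0.23 on the log2 scale. Fos stood at 2.39, 3.91 and 5.47 UMIs per 10,000, Jun at 3.81, 5.37 and 7.40, Junb at 1.34, 2.05 and 3.70, Jund at 4.43, 6.28 and 8.91, and Ier2 at 1.59, 2.38 and 3.30. Fosb stood at 0.504, 0.790 and 0.956, Atf3 at 0.484, 0.572 and 0.725, and Egr1 at 4.03, 4.56 and 5.66. Fosl2 did not follow, at 0.118, 0.112 and 0.115. Fosl1 stood at 0.00753, 0.0137 and 0.0204, from 26, 42 and 25 UMIs in 18, 11 and 9 cells. Its share of cells with a UMI, 2.01%, 1.79% and 3.72%, did not rise at each step.

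The largest log2 difference of EGFP-high over EGFP-zero cells among the 10 genes was that of Junb, 1.47 (1.41 to 1.52). Fos had 1.20 (1.15 to 1.24), Ier2 1.05 (0.99 to 1.11), Jund 1.01 (0.97 to 1.04), Jun 0.96 (0.92 to 0.996), Fosb 0.92 (0.82 to 1.03), Atf3 0.58 (0.46 to 0.70) and Egr1 0.49 (0.45 to 0.53). With Fosl1, at 1.43 (0.58 to 2.28) on 25 and 26 UMIs, 5 of 10 genes passed 1, against 9.36% of all genes, and 0 of 10 did so in EGFP-low over EGFP-zero cells, against 0.764%. The median of all genes was 0.23 in EGFP-high over EGFP-zero cells, and centred on it 2 of 10 passed 1, Junb at 1.24 and Fosl1 at 1.21. The centred count has no centred share of all genes beside it.

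EGFP-high cells were partly Alb-low: 106 of 242 were Alb-high, against 791 of 897 EGFP-zero cells. Within Alb-high cells the log2 difference of EGFP-high over EGFP-zero was 1.11 (1.02 to 1.21) for Junb, 1.06 (0.91 to 1.21) for Fosb, 1.001 (0.93 to 1.07) for Fos, 0.90 (0.81 to 0.98) for Ier2, 0.81 (0.76 to 0.86) for Jund and 0.74 (0.68 to 0.80) for Jun. Egr1 had 0.27 (0.21 to 0.34) and Atf3 0.25 (0.06 to 0.43). There, 3 of 9 genes passed 1, against 4.62% of all genes, and none passed -1, against 3.99%. Centred on the median of all genes, 0.11, 0 of 9 passed 1, with Junb at 0.9996, and no centred share of all genes stands beside this count. Fosl1 had 3 UMIs in EGFP-high and 20 in EGFP-zero cells (-0.20, -2.59 to 1.56). Jund, lower in Alb-high cells of the DDC and cMet library than in those of the DDC library, was thus among the genes that were higher in EGFP-high cells.

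**Figure D5:**
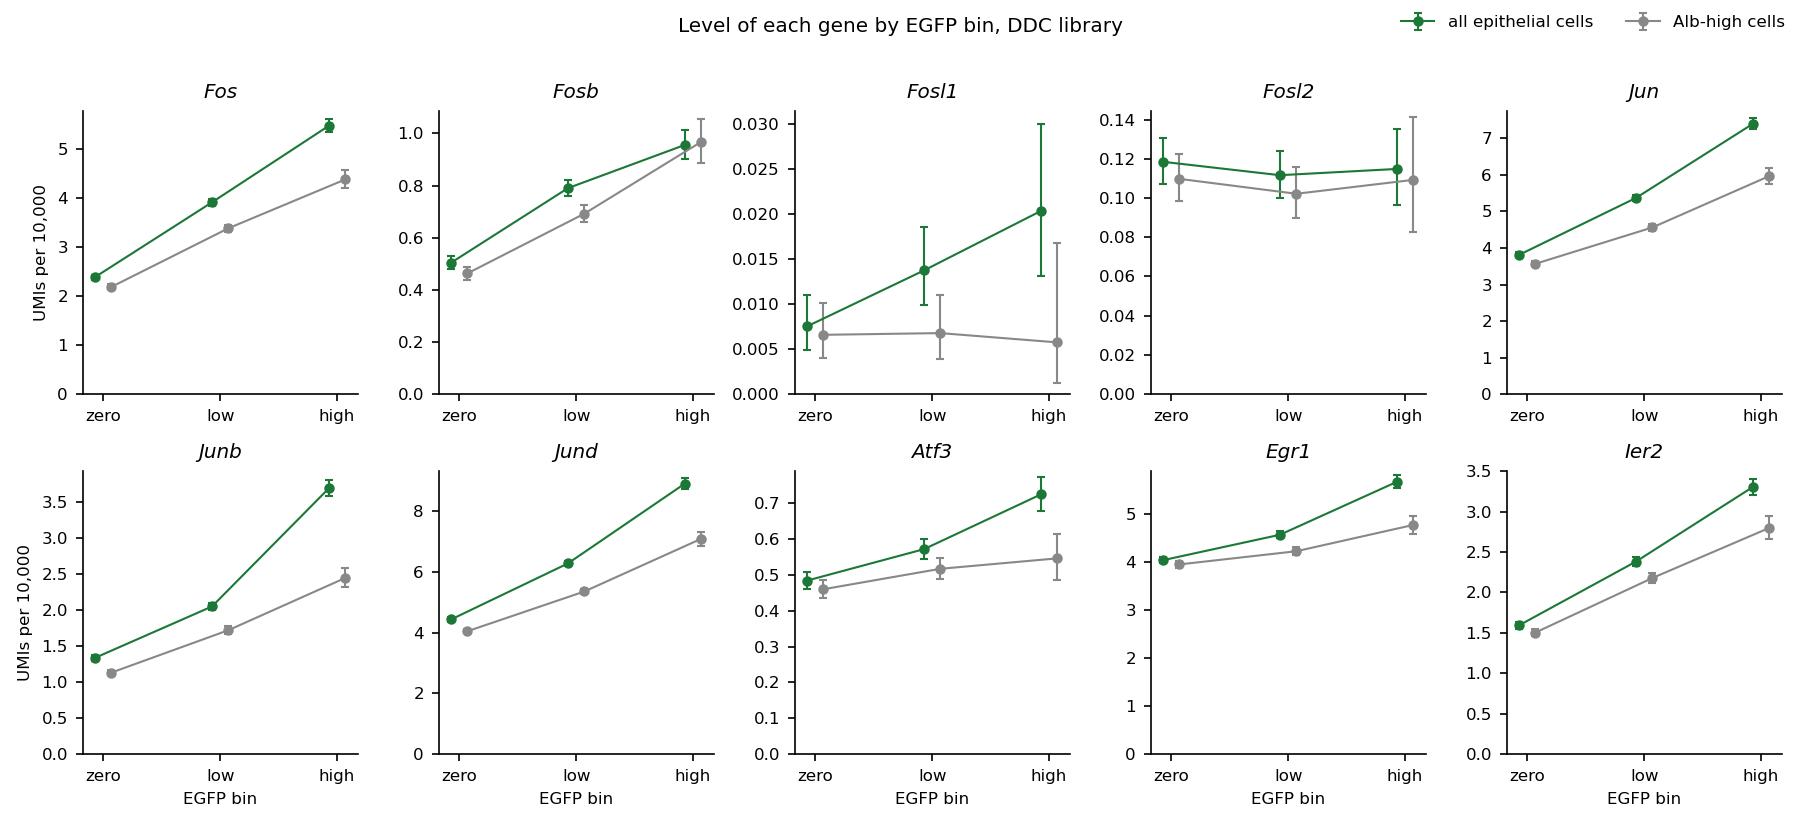
Level of each gene, as UMIs per 10,000 (vertical axis, from 0, scaled per gene), in EGFP-zero, EGFP-low and EGFP-high cells of the DDC library, for all epithelial cells (green) and for Alb-high cells (grey). Bars are 95% counting intervals. Of the 10 genes, all but Fosl1 and Fosl2 are higher at each step in both sets of cells. How many of all genes do the same was not counted.

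Depth and mitochondrial share were read within Alb-high cells, in ranges of under 5000 UMIs, 5000 to under 20000, and 20000 or more. Fos had 4.50, 4.17 and 4.95 UMIs per 10,000 by depth in the DDC and cMet library, and 3.01, 2.57 and 2.87 in the DDC library. Jund had 2.55, 2.36 and 2.94 in the DDC and cMet library and 4.22, 3.56 and 4.90 in the DDC library, so its order between libraries was the same at each depth. By mitochondrial share of at most 5%, above 5 to 10% and above 10%, Atf3 had 1.43, 1.66 and 1.25 in the DDC and cMet library and 0.462, 0.544 and 0.336 in the DDC library.

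Alb-high cells were also split by Plet1, a progenitor-associated surface gene. Fosl1 was under 50 UMIs in both libraries here, so its values are given as counts from few cells. In the DDC and cMet library, the 409 deep Alb-high cells with at least 2 Plet1 UMIs held 29 Fosl1 UMIs in 12 cells, and the 2605 others held 12 in 6 cells, which is 0.0167 and 0.00122 per 10,000. In the DDC library, 907 cells with and 466 without Plet1 held 38 UMIs and 1 UMI of Fosl1 (log2 ratio 4.00, 1.44 to 9.34, too narrow as above), at median depths of 44069 and 36632.5 UMIs, against 38840 and 35919 in the DDC and cMet library. Jund was higher with Plet1 by 0.65 (0.61 to 0.69) in the DDC and cMet library and by 0.59 (0.54 to 0.63) in the DDC library, Junb by 0.53 and 0.52, and Jun by 0.52 and 0.39, while Egr1 stood at 0.06 and -0.07. None of the 9 genes with at least 50 UMIs passed 1 in either library, against 5.77% and 4.55% of all genes. With H19, a fetal and tumour transcript, 9 genes of the DDC and cMet library lay between -0.05 and 0.29, none past 1 in either direction, against 1.27% of all genes higher and 2.77% lower. With Defb1, a defensin gene, 9 genes of the DDC library lay between -0.50 and 0.12, none past 1, against 0.475% of all genes higher and 1.71% lower.

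Lists of related genes were counted in the same comparisons. Of 22 other immediate early genes, 13 of 22 with enough UMIs were higher by 1 or more in Kupffer-marker cells of the DDC and cMet library (3.79% of all genes), 8 of 20 in endothelial-marker (5.65%), 11 of 16 in stellate-marker (14.5%) and 5 of 20 in biliary-marker cells (4.76%). In Alb-high cells 3 of 22 were higher (5.74%) and 2 of 22 lower (11.4%), nearer to the shares of all genes. Nr4a1, an orphan nuclear receptor, had 1.48 and 0.378 UMIs per 10,000 in Kupffer-marker cells of the DDC and cMet and of the DDC library (1.97), 1.24 and 0.114 in endothelial-marker cells (3.45) and 0.426 and 0.0749 in Alb-high cells (2.51). Egr2, a relative of Egr1, had 0.0624 and 0.00244 in Alb-high cells (4.68). Ier3, an immediate early gene tied to survival, was the opposite there, with 0.131 and 0.658 (-2.33). The list's median was 1.11 in Kupffer-marker and 0.09 in Alb-high cells.

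Heat shock genes, which cells switch on when proteins unfold, were counted as a second stress list of 10. In Alb-high cells of the DDC and cMet library 0 of 10 were higher (5.74% of all genes) and 2 of 10 lower (11.4%) by 1 or more, near those shares: Hspb1 with 0.150 and 1.58 UMIs per 10,000 in the DDC and cMet and the DDC library (-3.39) and Hspa1a with 0.0710 and 0.164 (-1.21). In biliary-marker cells 4 of 10 were higher (4.76%), among them Hspa1a with 0.860 and 0.0421 (4.35) and Hspa1b with 2.04 and 0.207 (3.30). Kupffer-marker cells had 2 of 10 higher (3.79%) and 1 of 10 lower (5.31%), and endothelial-marker cells 2 of 10 higher (5.65%), with Hspa1a at 1.81 and 0.114 (4.00). Stellate-marker cells had 2 of 8 higher (14.5%), with Hspa1b on 184 and 1 UMIs (6.15, 3.66 to 11.5).

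Upstream of the 10 lie the MAPK and JNK kinases, which phosphorylate Jun and the factors at the serum response element. Of 16 such kinases and nuclear factors, none was higher by 1 or more in Alb-high cells of the DDC and cMet library and 3 of 16 were lower, near the 5.74% and 11.4% of all genes: Rps6ka3 (-1.32), Elk3 (-1.23) and Mapk3 (-1.04). None of 16 passed in either direction in Kupffer-marker cells, against 3.79% of all genes higher and 5.31% lower. None of 14 did so in endothelial-marker cells, against 5.65% and 2.68%, so these counts are also near the shares of all genes. MAPK feedback genes, transcribed when the pathway is active, were counted between libraries and by EGFP bin. In Alb-high cells of the DDC and cMet library 1 of 9 was higher and 2 of 9 lower by 1 or more (5.74% and 11.4% of all genes). In biliary-marker cells it was 1 of 8 each way (4.76% and 3.89%). Kupffer-marker cells had 0 of 6 higher and 1 of 6 lower (3.79% and 5.31%). Endothelial-marker cells had 1 of 6 higher (5.65%) and stellate-marker cells 2 of 3 (14.5%), with none lower. In EGFP-high over EGFP-zero cells 5 of 9 were higher by 1 or more (9.36% of all genes), with a median of 1.04 (0.23 for all genes), and in EGFP-low over EGFP-zero cells 1 of 9 (0.764%). The largest EGFP-high differences were those of Etv4 at 0.110 and 0.0104 UMIs per 10,000 (3.40) and Dusp5 at 0.188 and 0.0536 (1.81). Within Alb-high cells the EGFP-high count was 4 of 9 (4.62% of all genes). Biliary-marker over Alb-high cells of the DDC library also gave 5 of 9 (12.5%). Pathway activity itself was not tested.

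Across 12 cell groups (Alb-high cells in 3 depth ranges and the 3 non-epithelial classes of each library), the genes outside the 10 whose log2 level followed Fos most closely, out of 12268 considered, were Ogfr (Pearson's r 0.959), Akr1b3 (0.955) and Nr4a1 (0.938). For Jund they were Relb (0.964), Akirin2 (0.962) and Stx5a (0.959), and for Atf3 Gnl3 (0.942), Rpl39 (0.920) and 1810009A15Rik (0.909). The groups share libraries and depth. For Fosl1 they were 1200007C13Rik (0.962), Gm19426 (0.960) and 2010204K13Rik (0.957). Fosl1 had only 87 UMIs over the 12 groups, below the limit set for the genes compared with it. It had a UMI in 9 of the groups, which leaves its levels with wide counting intervals. Its highest level, 0.0279 per 10,000, came from 1 UMI in the 28 stellate-marker cells of the DDC and cMet library. The next was 0.00655, in Alb-high cells of the DDC library with at least 20000 UMIs. The r values of Fosl1 thus lean on 1 UMI, and no likeness can be read from them.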

How the data were processed

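Droplet 3′ RNA profiles of 2 mouse liver libraries were used. The authors deposited counts, whole UMIs per gene and barcode without normalization, with gene and barcode lists as text (other). Per the file headers, Cell Ranger 5.0.1 made the matrices. The submitters' processing notes list version 6.0.1 of that tool, with Seurat (4.0.1) and build mm10 among others. No source used here says how barcodes were called.

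The members, companion lists and gates were chosen with earlier results of these data known. A class gate was at least 3 markers with a UMI and a summed level of 20 UMIs per 10,000 (10 for T or NK, B, and monocyte or dendritic markers). No doublet caller was run; cells passing several gates, or a gate with Alb of 100 or more, were left out. The biliary-marker class, bins within Alb-high cells, marker subsets, and limits of 20000 UMIs and 5% mitochondrial UMIs were added after seeing the data. One hepatocyte marker, Tf, is not a symbol in the files, which leaves 9 of 10.

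UMIs were summed over a class and divided by the class total. Log2 ratios were counted at 1 or more for genes with at least 50 UMIs over the sides compared; a side at 0 was set at 3 UMIs over the class, and where that gave no bound the gene was left out. Intervals were exact Poisson for sums, exact conditional for ratios and Clopper-Pearson for shares, at 95%, for counting error alone. Only the ratio intervals were run on simulated data. The simulated sums were Poisson without spread between cells. That checks the computation and cannot show how the intervals hold for counts clustered in few cells. A single library per condition allows no p-value. All 10 members are named, and from each list up to 3 genes with the largest absolute ratio in a comparison. Likeness used log2(UMIs per 10,000 + 0.1) and genes with at least 200 UMIs and a UMI in at least 8 groups. The planned comparison by tdTomato could not be made. Scripts ran in Python 3.11.15 on pandas 2.3.3 and numpy 2.4.6; intervals came from scipy 1.17.1, clusters from scikit-learn 1.9.0 with igraph 0.11.9 and leidenalg 0.10.2, and plots from matplotlib 3.10.9.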

Additional observations from a re-analysis of the deposited data

Results flagged for a closer look

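For 3 of the 10 genes the difference between the libraries had opposite signs in 2 cell classes, each with a counting interval clear of 0. The difference between classes itself was not tested, since each library is 1 sample. Jund had -0.75 in Alb-high cells, against 0.12 in biliary-marker, 0.13 in Kupffer-marker and 1.11 in endothelial-marker cells (log2, DDC and cMet library over DDC library). Fosl2 had -0.45 in Alb-high and 0.77 in Kupffer-marker cells. Fosl1 had -0.93 in Alb-high cells, on 43 and 39 UMIs in 20 and 17 cells, and 1.37 in biliary-marker cells, on 17 and 37 UMIs in 7 and 17 cells; UMIs of 1 gene in few cells make these intervals too narrow, and with Leiden clusters the Alb-high value was 1.04, of the same sign.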

How the results depend on the processing

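No paired analysis was possible because each group is 1 library. Of 812 differences of single genes under 16 alternatives (cell filter, thinning, scaling, gates, clusters, bins, depth and mitochondrial limits), 2 that had passed 1 changed sign: Fosl1 in EGFP-high over EGFP-zero cells within Alb-high cells (-0.20), and Jun in stellate-marker cells of at least 20000 UMIs (-0.45). Smaller values that changed sign include Fosl1 in EGFP-low cells after thinning (-1.46), Jund in biliary-marker cells with an Alb gate of 50 (-0.07) and Jund in deep stellate-marker cells (-1.28). Of 186 counts of genes, 168 stayed within 1.5 times. Centred on the median of all genes, counts higher were 3 in Alb-high cells (1 in the report) and 2 in EGFP-high over EGFP-zero cells (5). Class over Alb-high counts also fell on centring, in the DDC and cMet library to 3, 3, 4 and 6 (7, 6, 7 and 9) and in the DDC library to 2, 3, 1 and 2 (4, 4, 3 and 4), and EGFP-high counts within Alb-high cells to 0 (3); this was added after seeing the data. Leiden clusters gave 2 in Alb-high and 1 in EGFP-low cells (0). At a fold of 0.5, 3 were higher and 2 lower in Alb-high cells, 8 higher in biliary-marker, 8 in EGFP-high and 6 in EGFP-low cells. EGFP-high counts were 3 with bins at 20000 UMIs, 2 with a bin edge of 1 and 3 within Alb-high cells, and EGFP-low counts 1 with an edge of 1 or 4. Biliary-marker cells gave 2 with an Alb gate of 50. At 20000 UMIs endothelial-marker cells gave 4, and stellate-marker cells 2 higher and 1 lower. The cause was not tested, and no share of all genes was set beside the counts under alternatives. Of 130 shares, 95 left their interval with thinning to 4000 UMIs and 111 without thinning, since shares scale with depth. Clusters gave no stellate or biliary class and tdTomato no value. Few UMIs limit Fosl1, and few cells the stellate-marker values.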

Other observations

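Within the DDC library, the inducible chaperone genes Hspa1a and Hspa1b did not follow the immediate early genes across EGFP bins. Hspa1a had 0.281 UMIs per 10,000 in EGFP-zero, 0.0137 in EGFP-low and 0.0472 in EGFP-high cells, and Hspa1b 1.13, 0.157 and 0.191. The list of 10 heat shock genes was mixed in EGFP-high over EGFP-zero cells, with 4 intervals above 0 and 5 below. Only 2 of 10 passed -1, against 4.80% of all genes, and 0 of 10 passed 1, against 9.36%. Within Alb-high cells Hspa1b had 0.197 in EGFP-high and 1.26 in EGFP-zero cells (log2 difference -2.67, -2.97 to -2.39), where Fos had 1.001 and Junb 1.11 in the opposite direction. EGFP-zero cells include untreated mice, and this was not tested further.

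Mitotic Alb-high cells had at least 2 UMIs of Mki67 and Top2a together. Set against the others, no gene of 9 passed 1 in either direction. Of all genes, 3.37% were higher and 2.73% lower by 1 or more in the DDC and cMet library, and 3.44% and 2.86% in the DDC library. Of the 9 counting intervals, 4 lay above 0 and 3 below in the DDC and cMet library, and 1 above and 6 below in the DDC library. Intervals of all genes were not counted. In the DDC and cMet library, 255 such cells against 2759 had 0.20 (0.13 to 0.26) for Atf3 and -0.11 (-0.15 to -0.07) for Fos, and in the DDC library, 161 against 1212 had 0.32 (0.18 to 0.46) for Atf3 and -0.21 (-0.28 to -0.14) for Fos. There Fosl2 had -0.50 (-0.89 to -0.13), Junb -0.33 (-0.42 to -0.23) and Jun -0.28 (-0.33 to -0.22).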
